A study of Drosophila melanogaster with 12 samples.

Results

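The cytoplasmic ribosomal protein genes of Drosophila melanogaster and their paralogs were followed across 4 temperatures in S2R+ cells, a line derived from fly embryos with hemocyte-like properties. Members were all genes on the array whose transcript name maps to a symbol that begins with RpL or RpS, the stalk proteins RpLP0, RpLP1 and RpLP2 included and the mitochondrial ribosomal proteins left out. This gave 91 genes with 165 probes, of 13059 matched genes and 32162 gene probes on the array. Of the members, 78 were main genes and 13 were paralogs, that is, second copies or relatives of a main gene. Aliquots of cells were grown for 24 h at 11, 14, 25 or 30 °C, with 3 biological replicates at each temperature. Plated numbers were 4500000 cells for 11 °C, 3500000 for 14 °C, 1700000 for 25 °C and 1500000 for 30 °C, so that the number of plated cells varied together with temperature. Total RNA of each culture was labelled with Cy3 and read on 1 single-colour array.

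The cytoplasmic ribosome is built from ribosomal RNA and a set of ribosomal proteins, with RpS proteins in the small subunit and RpL proteins in the large subunit. Its protein genes are among the most strongly transcribed genes of growing cells, and flies heterozygous for a loss of such a gene often show the Minute phenotype of slow growth and short bristles. Several fly ribosomal proteins have a second gene, and some of these copies are known for expression in the germ line. A few genes carry a ribosomal protein name but encode relatives of yeast ribosome assembly factors.

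On each array 43603 gene spots were read, of which 53.9% to 61.1% were well above background and 0 were saturated. The arrays lay on 3 slides of 4. Slide 1 held replicate 1 of every temperature, whereas replicates 2 and 3 of 11 and 14 °C shared another slide and those of 25 and 30 °C the last one. For these replicates slide cannot be told apart from the difference of 11 and 14 °C against 25 and 30 °C. Values within slide 1 are therefore given beside the results. At 30 against 25 °C and at 11 against 14 °C, both temperatures lay on the same slides. Values are log2 processed signals scaled to the array median with the 25 °C arrays as control, averaged over the probes of a gene. Cells at 11 and 14 °C are called cool, those at 25 and 30 °C warm. Of 10 markers of S2R+ cells or hemocytes, 8 were above background on all arrays, among them serpent, pannier and Peroxidasin. Hemolectin was above background on 9 arrays and NimC1 on 3. Of the 10 markers, 0 were called higher in cool cells and 3 lower by the rule used for the members below. Changes ran from -1.98 (Hemolectin) to 0.33 (pannier), with a median of -0.63 on the log2 scale. The lower call of NimC1 rests mostly on values not well above background, and that of Hemolectin partly. The summed signal of the 10 markers was 42166 to 53991 on cool arrays and 52355 to 75910 on warm arrays. The part of any change in cell state in the results below was not tested. In bulk RNA, fewer cells that express a gene and less RNA per cell cannot be told apart.

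The main ribosomal protein genes that the rule took were all measured, and they stayed close together. RpS19a, a main gene that the rule did not take, was also above background on all arrays. Of 78 main genes, 77 were above background on all arrays, and RpL13A on 11, because 1 of its spots was set aside as an outlier. Of 151 probes of main genes, 130 (86.1%) were so bright that the scanner took their values from its low-gain scan, against 5.60% of all 19760 probes tested. Among 13 paralogs, 9 were above background on all 12 arrays, RpS10a on 11, RpS28-like on 4, RpL22-like on 3 and RpL10Aa on 0. Of 13 probes of the paralogs tested, 5 were also read from the low-gain scan, so that not all paralogs gave weak signals. RpL10Aa did not pass the filter on dim probes, which left 90 members for the tests.

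In the cool against warm comparison, no main gene changed by 2-fold. At 2-fold and an adjusted p under 0.01 (limma with Benjamini-Hochberg adjustment over 15114 features), 1 member was higher in cool cells, against 9.24% of all features, and 1 was lower, against 11.4%. These 2 members were the paralogs RpS28-like and RpS10a, described below. The median change of the 78 main genes was -0.15, and that of all features was -0.17. The main genes lay between -0.63 and 0.40, and 97.4% of them lay within 0.5 of their own median, against 54.0% of all features. Of the 653 other features read from the low-gain scan, 77.3% lay within 0.5 of their median, and the part of signal brightness in this narrow spread was not tested. Large subunit genes had a median change of -0.15 (47 genes) and small subunit genes of -0.15 (31 genes).

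**Figure D1:**
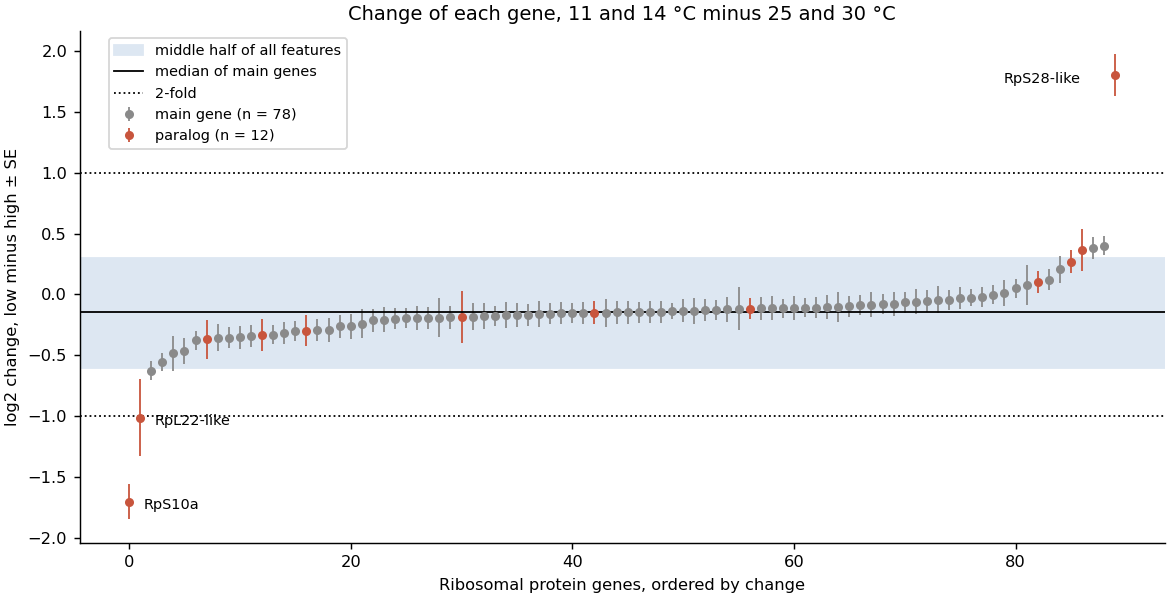
Cool minus warm log2 change of each of 90 ribosomal protein genes with its standard error, ordered by size, with main genes in grey and paralogs in red. The shaded band is the interquartile range of all features, the solid line is the median of the main genes, and 3 paralogs lie at or beyond the dotted 2-fold lines.

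With the threshold on the adjusted p alone, 3 members were higher in cool cells, against 18.3% of all features, and 11 were lower, against 30.5%. The higher ones were RpS28-like and the main genes RpL17 and RpL7. The 10 lower main genes included RpL37-1, RpS21, RpS3A, RpL5, RpS29, RpS28b, RpL30, RpL15 and RpS23. All 6 cool arrays lay below all 6 warm arrays for 7 members, against 21.4% of all features, and above them for 2 members, against 10.4%. The direction of the small shifts depended on what the arrays were scaled on. The median of the main genes was -0.15 with the array median, but 0.05 with the 75th percentile, 0.04 with probes above background on all arrays, 0.10 with the spike-in controls and 0.03 after quantile normalization. The median of all features moved with it, to 0.02, 0.02, 0.07 and -0.06. Across all features 44.8% of the calls were higher in cool cells with the array median, against 59.4% with the 75th percentile and 62.7% with spike-in controls. The shift of the main genes as a group thus had no settled direction. The paper describes cytoplasmic ribosome genes as marginally affected, with an overall rise at low temperature in S2R+ cells. The gene set and the measure behind that statement were not matched here.

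**Figure D2:**
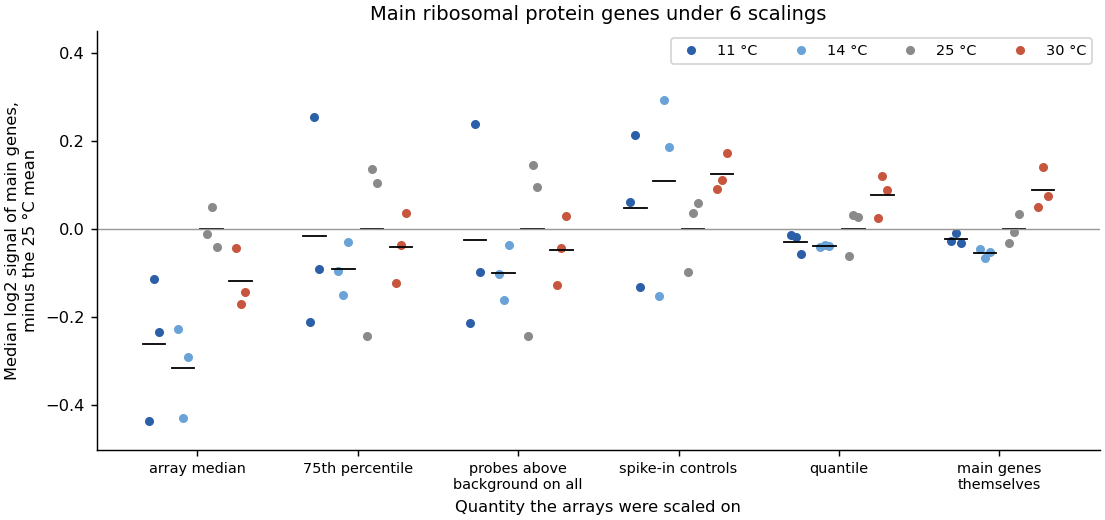
Median log2 signal of the main ribosomal protein genes on each array, minus the mean of the 25 °C arrays, under 6 scalings, with the 4 temperatures in order from 11 to 30 °C and a bar at each mean. Scaled on the array median, all 6 cool arrays lie below the 25 °C mean, whereas with spike-in controls the means of 11, 14 and 30 °C lie above it.

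On the array-median scale, the main-gene median averaged 16.96 ± 0.16 at 11 °C, 16.91 ± 0.10 at 14 °C, 17.22 ± 0.05 at 25 °C and 17.10 ± 0.07 in 30 °C cultures (SD over 3 arrays). Within slide 1 this median changed by -0.30 cool minus warm, and the median of the main genes' own changes there was -0.27. At 11 against 25 °C, 1 member was higher (8.73% of all features) and 1 lower (11.2%), again RpS28-like and RpS10a. At 14 against 25 °C, the same paralogs were called, 1 higher (5.33% of all features) and 1 lower (4.96%). At 30 against 25 °C, RpL22-like was the 1 member called higher (4.17% of all features), and 0 were lower (3.39%). Between 11 and 14 °C limma called 0 members, against 0.953% of all features higher and 1.22% lower. With the adjusted p alone, RpS28-like was again the 1 member higher at 11 and at 14 °C (12.8% and 7.48% of all features), and 4 members were lower in each case (23.1% and 13.5%). Besides RpS10a these were RpL37-1, RpL5 and RpS19b at 11 °C, and RpL37-1, RpS21 and RpS23 at 14 °C. At 30 °C RpL22-like was again the 1 higher member (6.09% of all features) and RpL7 and RpS7 were the 2 lower ones (6.46%), and between 11 and 14 °C 0 members passed in limma (1.5% higher and 2.58% lower). The median changes of the main genes were -0.22, -0.26, -0.18 and 0.05 in these comparisons, and those of all features were -0.22, -0.19, -0.08 and -0.02. The comparisons with 25 °C share those arrays.

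Among the main genes, RpL37-1, a large subunit protein, had the largest decrease. Its values were 9.10, 8.94 and 9.18 at 11 °C, with 9.01, 8.87 and 8.98 at 14 °C, then 9.73, 9.75 and 9.52 at 25 °C and lastly 9.61, 9.62 and 9.61 at 30 °C. Every cool array lay below every warm array. The cool minus warm change was -0.63 ± 0.08 (SE; limma adjusted p = 3.84e-05), and it was -0.61 within slide 1. With spike-in controls the change of RpL37-1 was -0.38 (limma adjusted p = 0.0157) and no longer passed. RpL37-1 was read by 1 probe, the dimmest among the main genes. At 25 °C its mean was 9.67, under that of its paralog RpL37-2 (10.88). The part of signal brightness in this change was not tested. RpL17, also of the large subunit, had the largest increase among main genes. It read 15.22, 15.28 and 15.51 at 11 °C, with 15.27, 15.18 and 15.20 at 14 °C, then 15.02, 15.07 and 15.01 at 25 °C and lastly 14.85, 14.63 and 14.67 at 30 °C. Every cool array lay above every warm array, the change was 0.40 ± 0.08 (limma adjusted p = 0.00113), and it was 0.31 within slide 1. Other main genes at the ends of the order were RpS21 (-0.55) and RpL3 (-0.48) among the lowest and RpL7 (0.38) among the highest. For each of these 3, and for RpL17, the probes did not share the change, as described below.

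The stalk and the ubiquitin fusions are special among ribosomal proteins. RpLP0, RpLP1 and RpLP2 form the flexible stalk that recruits translation factors. Their cool minus warm changes were -0.29 ± 0.10, -0.18 ± 0.11 and -0.18 ± 0.11, with limma adjusted p of 0.025, 0.187 and 0.18. RpL40 and RpS27A are made as fusions to ubiquitin, from which they are then cleaved. RpL40 had a change of -0.14 ± 0.07 (limma adjusted p = 0.0991) and RpS27A of -0.29 ± 0.09 (limma adjusted p = 0.0161). None of these 5 genes passed the threshold, and their cool and warm values overlapped.

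Of the paralogs, 3 were called in at least 1 comparison, each in its own pattern. RpS10a, the second copy of the small subunit protein RpS10b, was lower in cool cells. Its values were 3.72, 3.88 and 4.38 at 11 °C, with 4.21, 4.89 and 4.79 at 14 °C, then 6.13, 6.10 and 5.93 at 25 °C and lastly 6.09, 5.88 and 5.95 at 30 °C. The highest cool value was 4.89 and the lowest warm value was 5.88, so the groups did not overlap. RpS10a fell by 1.70 ± 0.14 on the log2 scale in cool cells (SE; limma adjusted p = 2.21e-06), a ratio of 0.307 of the warm level, and within slide 1 the change was -2.15. This call held under each of the 5 other scalings and without any 1 array. At 11 °C the change against 25 °C was -2.06 ± 0.20 (limma adjusted p = 1.55e-05), at 14 °C it was -1.43 ± 0.20 (limma adjusted p = 0.000437), and the difference between 11 and 14 °C did not pass the test (-0.64 ± 0.20, limma adjusted p = 0.0718). At 30 °C it was -0.08 ± 0.20 against 25 °C. Of the 3 arrays at 11 °C, 2 were well above background, and the one that read 3.88 was not.

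RpS28-like, related to the small subunit protein RpS28b, was higher in cool cells. It read 3.97, 3.76 and 4.30 at 11 °C, with 3.54, 3.23 and 3.40 at 14 °C, then 2.72, 1.75 and 1.80 at 25 °C and lastly 1.85, 1.59 and 1.69 at 30 °C. Every cool array was above every warm array, and the warm array nearest to them was 25 °C replicate 1. The measured change was 1.80 ± 0.17 (SE; limma adjusted p = 5.19e-06), and 1.47 within slide 1. Only 4 of 6 cool arrays and 0 of 6 warm arrays were well above background. RpS28-like therefore passed the filter on dim probes only through the cool groups, where it was higher, and its test is not independent of that selection. Against the lowest signal well above background on each warm array, the gene had a bound of at least 1.14-fold higher in cool cells, and of at least 1.22-fold higher at 11 °C than at 25 °C, while the 14 °C mean lay under the 25 °C limit and gave no fold. These bounds rest on the mean of all arrays of the brighter group, of which 2 of 6 cool arrays and 1 of 3 at 11 °C were themselves not well above background. With the slide as a block, the change at 14 against 25 °C was 0.97 (limma adjusted p = 0.0199) and the call ended, as it did in a fit of the arrays of 14 and 25 °C alone (limma adjusted p = 0.0148).

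RpL22-like, the copy of RpL22 known in flies for its expression in the testis, was called only at 30 against 25 °C. It read 3.90, 4.04 and 3.73 at 30 °C, against 1.73, 1.92 and 1.85 at 25 °C. The values at 11 °C were 1.03, 3.03 and 1.69, those at 14 °C were 1.91, 1.05 and 2.39, and none of these arrays was well above background, unlike the 3 arrays of 30 °C. The measured change at 30 against 25 °C was 2.05 ± 0.44 (SE; limma adjusted p = 0.00711), and as a bound RpL22-like was at least 1.12-fold higher. RpL22-like passed the filter on dim probes only through the 30 °C group, so this test is not independent of that selection. Without that filter RpL22-like was not called. In the same comparison 6 of the 10 S2R+ or hemocyte markers were called higher and 1 lower, with a median change of 1.34, and their part in this result was not tested. This call ended when any 1 array of 25 or 30 °C was left out, with changes of 1.98 to 2.13 and limma adjusted p of 0.0204 to 0.0288. It also ended without 11 °C replicate 3 (limma adjusted p = 0.0104) or 14 °C replicate 1 (limma adjusted p = 0.0114), and with replicate number as a block (limma adjusted p = 0.0117). Cool against warm, the change was -1.01 ± 0.31 (limma adjusted p = 0.0162) and -1.34 within slide 1, which did not pass, but without 11 °C replicate 2, its brightest cool array, it was -1.29 (limma adjusted p = 0.000751) and passed.

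All 3 of these paralogs gave weak signals, and the calls depended on how background was handled. With a normexp background correction and an offset of 50 units, fitted without spots far below background, the changes were -0.59 for RpS10a (limma adjusted p = 3.03e-06) and 0.20 for RpS28-like (limma adjusted p = 0.0134) in cool against warm cells, and 0.26 for RpL22-like at 30 against 25 °C (limma adjusted p = 0.0943), and none reached 2-fold. A filter that kept probes with a signal over 100 left out the probes of all 3 paralogs, which were then not tested, and 0 members were called. Scaled on spike-in controls, the change of RpS10a at 14 against 25 °C was -1.001 (limma adjusted p = 0.0156) and that call ended.

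The main genes of these 3 paralogs stayed below 2-fold. RpS10b, RpS28b and RpL22 had cool minus warm changes of -0.14 ± 0.09, -0.35 ± 0.09 and -0.13 ± 0.08, with limma adjusted p of 0.235, 0.00667 and 0.192. The main genes RpS15Aa, RpS5a and RpL24 of other paralogs had changes of -0.11, -0.10 and -0.19.

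**Figure D3:**
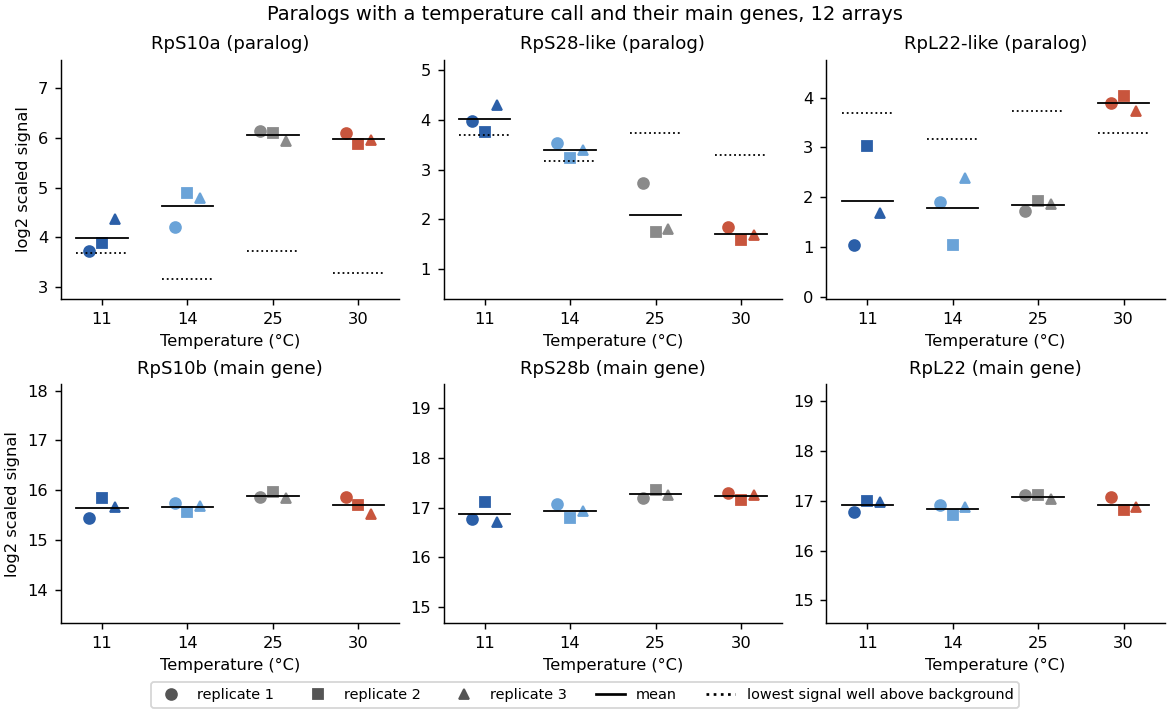
Log2 scaled signal of RpS10a, RpS28-like and RpL22-like (top) and of their main genes RpS10b, RpS28b and RpL22 (bottom) on 12 arrays at 11, 14, 25 and 30 °C, each panel spanning the same number of log2 units. Points are arrays, solid bars are means of 3 arrays, and dotted bars mark the mean of the lowest signal well above background on these arrays. RpS10a is lower in cool cells, RpS28-like is higher, and RpL22-like stands above the dotted bar only at 30 °C.

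The other 9 paralogs that passed the filter had cool minus warm changes of -0.37 to 0.36, and none passed the threshold. RpL7-like and RpL24-like, relatives of yeast factors that help to assemble the large subunit, had changes of 0.27 ± 0.09 (limma adjusted p = 0.0267) and 0.10 ± 0.09 (limma adjusted p = 0.343). RpLP0-like, related to the yeast assembly factor Mrt4, had a change of -0.15 ± 0.09 (limma adjusted p = 0.192). RpS15Ab, RpL37-2 and RpS28a gave -0.12, -0.18 and -0.37, with limma adjusted p of 0.255, 0.481 and 0.0649. RpS5b, the copy of RpS5a known from the fly ovary, gave 0.36 ± 0.17 (limma adjusted p = 0.0846).

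RpS19b, the copy of RpS19a, was lowest at 11 °C. It read 12.22, 12.18 and 12.22 at 11 °C, with 13.22, 12.61 and 12.90 at 14 °C, then 12.81, 13.37 and 13.22 at 25 °C and lastly 12.74, 12.50 and 12.49 at 30 °C. All 3 arrays at 11 °C lay below all others. At 11 against 25 °C the change was -0.93 ± 0.18 (limma adjusted p = 0.00135), short of 2-fold, and at 11 against 14 °C it was -0.70 ± 0.18 (limma adjusted p = 0.0299). Within slide 1 the change at 11 against 25 °C was -0.60. Cool against warm, RpS19b changed by -0.30, and by -0.06 within slide 1. Without 25 °C replicate 1 the change at 11 against 25 °C was -1.09 (limma adjusted p = 0.000527) and RpS19b was called. Of 5 germ line markers, 2 were above background on all arrays, vasa was on 10, and nanos and piwi were on 3 each. By the rule of 2-fold and adjusted p in limma, 0 were higher in cool cells and 2, nanos and piwi, were lower. The measured changes of these 2, -1.64 and -2.04, rest mostly on values not well above background. The other markers had changes of -0.44 (bam) to 0.34 (vasa), and the median of the list was -0.44. The summed signal of these markers ranged from 4338 to 6929 on cool arrays and from 3409 to 7139 on warm arrays, and their part in the values of the paralogs was not tested. For the 2 muscle precursor markers, of which 1 was above background on all arrays, the summed signal was 3505 to 5493 on cool arrays and 2102 to 3475 on warm arrays. For the 2 neuron markers, both above background on all arrays, it was 1862 to 2648 on cool arrays and 2313 to 4256 on warm arrays.

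A paralog and its main gene can be compared within each array, where scaling cancels out. The difference paralog minus main gene was formed for 12 pairs and compared between 6 cool and 6 warm arrays by a two-sided exact permutation test (924 splits, smallest possible p = 0.00216), adjusted over the 12 pairs. Since RpS10a and RpS28-like were already known to change, these tests are no independent support for them. The test exchanges arrays across slides. In 3 pairs the difference passed, each with cool and warm arrays fully apart. Among single features, all 6 cool arrays lay below all 6 warm arrays for 21.4% and above them for 10.4%. The share over other gene pairs was not computed, so the count of 3 is not read as particular to the paralogs. RpS10a minus RpS10b changed by -1.57 (exact p = 0.00216, adjusted p = 0.00866), and by -1.89 within slide 1. RpS28-like minus RpS28b changed by 2.15 (exact p = 0.00216, adjusted p = 0.00866), and by 1.78 within slide 1. RpS28-like was well above background on 4 of 6 cool and 0 of 6 warm arrays. The size and the p of this pair thus rest on warm values not well above background. RpL34a minus RpL34b, 2 copies of a large subunit protein, changed by -0.45 (exact p = 0.00216, adjusted p = 0.00866), and by -0.58 within slide 1. Both RpL34 genes were bright, with changes of -0.33 for RpL34a and 0.12 for RpL34b, neither of which passed on its own (limma adjusted p = 0.0447 and 0.249).

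The remaining 9 pairs did not pass. RpS5b minus RpS5a changed by 0.47 (exact p = 0.0195, adjusted p = 0.0584), and without 25 °C replicate 1 by 0.56 (adjusted p = 0.013). RpL22-like minus RpL22 changed by -0.88 (exact p = 0.145, adjusted p = 0.29) and RpL37-2 minus RpL37-1 by 0.44 (exact p = 0.0779, adjusted p = 0.187). The closest pair was RpS15Ab and RpS15Aa, whose difference changed by -0.0090 with a within-temperature SD of 0.06. The others changed by -0.15 (RpS19b minus RpS19a), -0.11 (RpL7-like minus RpL7), -0.018 (RpS28a minus RpS28b), 0.14 (RpLP0-like minus RpLP0) and 0.30 (RpL24-like minus RpL24). Within slide 1, RpS19b minus RpS19a changed in the other direction, by 0.30. The sequences of the probes were not used here. Whether probes for near-identical copies, such as RpS15Ab and RpS15Aa, also bind each other's transcripts was therefore not tested.

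**Figure D4:**
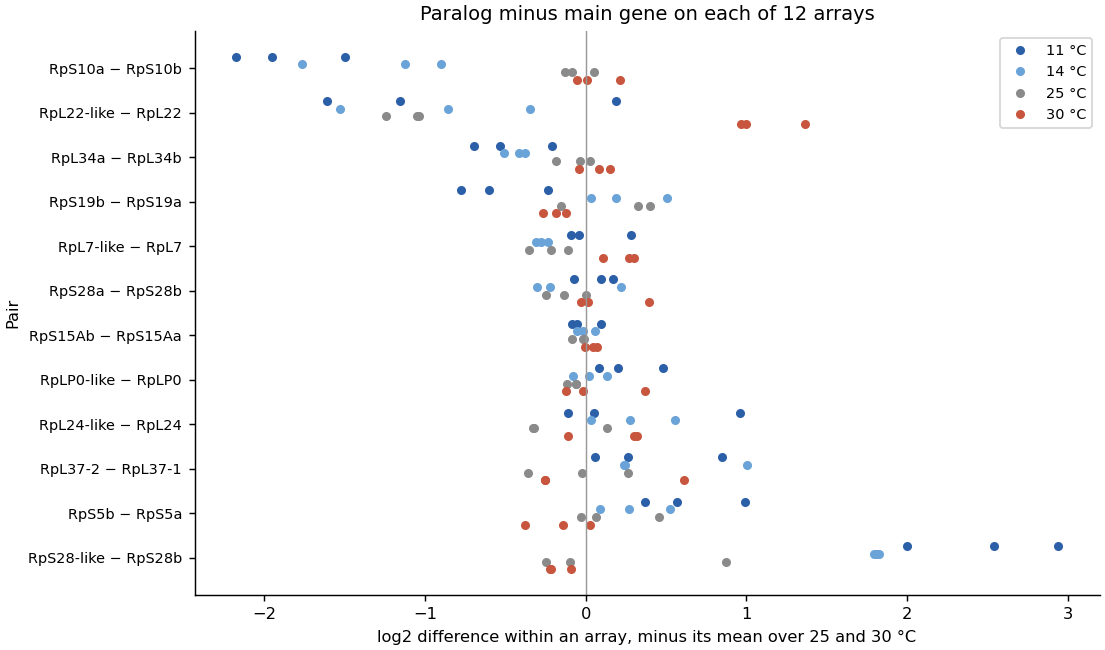
Log2 difference paralog minus main gene on each of 12 arrays, minus its mean over the 25 and 30 °C arrays, for 12 pairs ordered by the cool minus warm change. Cool and warm points are fully apart for RpS10a, RpL34a and RpS28-like.

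Where a member had several probes, these mostly moved together. Of 47 members with at least 2 probes past the filter, 4 (8.51%) had probes whose cool minus warm changes differed by 1 or more on the log2 scale, against 11.99% of 2970 RefSeq genes. The median difference between the most and the least increased probe was 0.107 in members and 0.18 over all these genes. The differing members included RpL7, RpL3 and RpS21. Probes of a gene are read on the same array, so that scaling does not affect their difference, which was not tested itself. Among single probes of members, 2 were called higher in cool cells, against 8.86% of all probes, and 2 lower, against 11.3%. These included the probes of RpS28-like and RpS10a and 1 probe of RpS21.

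RpS21, of the small subunit and known in flies as the tumor suppressor oho23B, had 2 probes for different transcripts. The probe for CG2986-RD read 11.60, 11.44 and 11.46 at 11 °C, with 11.19, 11.13 and 11.24 at 14 °C, then 12.24, 12.19 and 12.03 at 25 °C and lastly 12.80, 12.64 and 12.69 at 30 °C. Its change was -1.09 ± 0.08 (SE; limma adjusted p = 4.79e-07) and -1.12 within slide 1, and it was also higher at 30 than at 25 °C, by 0.56 (limma adjusted p = 0.00372). The probe for CG2986-RC had a change of -0.02 ± 0.08 (limma adjusted p = 0.849). Of the probes of RpS21, only the RD probe passed.

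The probes of RpL7 and RpL17, which contact ribosomal RNA in the large subunit, showed the opposite direction. For RpL7, probe A_09_P145095 read 9.91, 9.61 and 9.61 at 11 °C, with 10.23, 9.98 and 9.77 at 14 °C, then 9.47, 9.13 and 9.22 at 25 °C and lastly 8.78, 8.45 and 8.26 at 30 °C. Its change was 0.97 ± 0.12 (SE; limma adjusted p = 4.65e-05), short of 2-fold, and 0.95 within slide 1. At 30 against 25 °C the change of this probe was -0.78 (limma adjusted p = 0.00828). The brighter probe A_09_P011536 of the same transcript had a change of -0.21 ± 0.12 (limma adjusted p = 0.153). For RpL17, whose probes differed by 0.83, the dimmer probe had a change of 0.82 ± 0.09 (limma adjusted p = 1.58e-05) and the brighter probe of -0.02 ± 0.08 (limma adjusted p = 0.867). In both genes, only the probe that was not read from the low-gain scan was higher in cool cells, and the part of the scan in this was not tested.

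RpL3, a large subunit protein near the catalytic centre, had 6 probes for 3 transcripts. The 3 probes for CG4863-RE had changes of -0.36 ± 0.08, -0.40 ± 0.10 and 0.27 ± 0.12, of which the value of -0.40 rests on 10 arrays because outlier spots were missing on 2. The probes for CG4863-RC had changes of -0.75 ± 0.26 and -0.77 ± 0.24, and the dim probe for CG4863-RD of -0.85 ± 0.21. Both RC probes stood apart on 25 °C replicate 1, where they read 11.88 and 11.89, and within slide 1 their changes were -1.24 and -1.28. On the other 25 °C arrays the first RC probe read 10.32 and 10.27, and the second read 10.44 and 10.41.

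**Figure D5:**
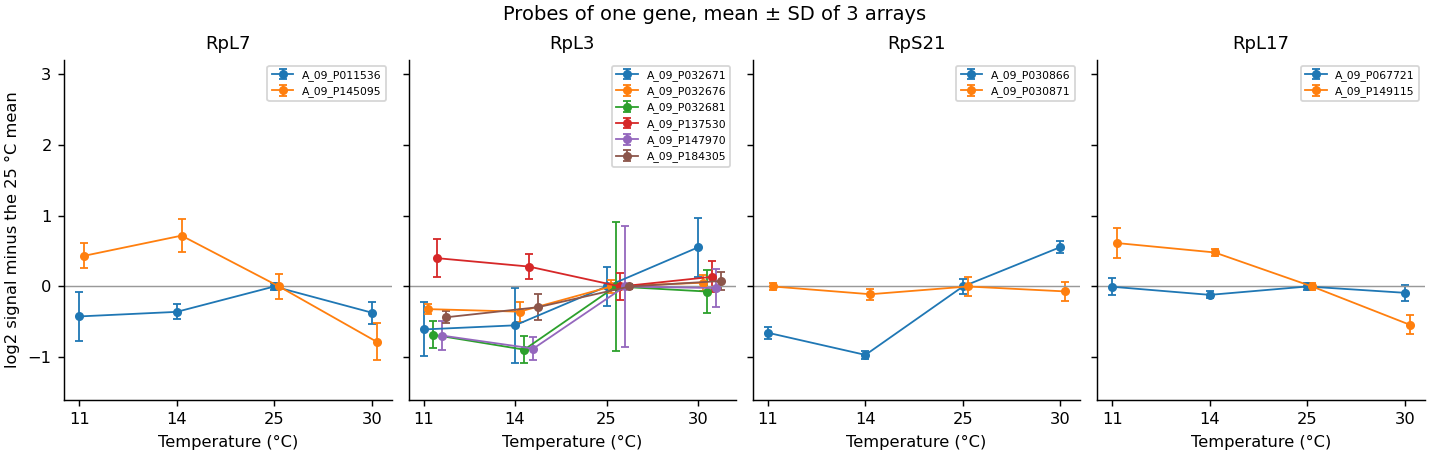
Log2 signal of each probe of RpL7, RpL3, RpS21 and RpL17 at 11, 14, 25 and 30 °C, minus the 25 °C mean of that probe, as mean ± SD of 3 arrays. In each gene at least 1 probe moves with temperature while another stays near 0 or moves the other way.

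A probe under the sequence-cluster identifier TC211040 fell outside the rule and was picked after its values were seen. The RefSeq table used here does not list that identifier. The supplementary annotation of the study places the probe in RpLP1, which could not be checked here. It read 11.88, 11.37 and 11.86 at 11 °C, with 11.81, 11.64 and 11.47 at 14 °C, then 9.16, 8.73 and 8.68 at 25 °C and lastly 6.65, 6.27 and 6.09 at 30 °C. Both cool groups lay above 25 °C, which lay above 30 °C. The probe rose by 4.08 ± 0.14 in cool cells (SE; limma adjusted p = 5.74e-09 over all probes), a ratio of 16.9, and by 3.94 within slide 1. At 30 °C it was lower than at 25 °C, with a change of -2.52 (limma adjusted p = 1.25e-05). The probe annotated to the RpLP1 transcript CG4087-RA had a change of -0.18 ± 0.11 on the same arrays (limma adjusted p = 0.189). The paper shows RpLP1 among genes whose cool-induced probes detected only transcripts ending at the most distal polyadenylation site. Its sequencing of transcript ends found distal and proximal sites preferred in the cool about equally often. Whether the TC211040 probe reads such a transcript was not tested.

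Other genes of translation were listed for comparison, as initiation, elongation and release factors, ribosome-associated proteins and the TOR pathway that controls ribosome production. Of 50 such genes tested, 0 were higher in cool cells, against 9.24% of all features, and 1 was lower, against 11.4%, by the same rule in limma. The lower one was eEF1alpha2, an elongation factor that brings tRNA to the ribosome, with a change of -1.03 ± 0.14 (limma adjusted p = 9.16e-05). Under 4 of the 5 other scalings its change was -0.88 to -0.78 and the call ended, as it did with the slide as a block (-0.83, limma adjusted p = 0.00266) and under both normexp corrections. It also ended when 11 °C replicate 3, 14 °C replicate 2 or 3, or 25 °C replicate 1 was left out, with changes of -0.99 to -0.92. The median change was -0.11 for 26 initiation factors, -0.22 for 7 elongation factors, -0.12 for 3 release factors, -0.27 for 4 ribosome-associated genes and -0.13 for 10 genes of the TOR list, against -0.17 for all features. With the threshold on the adjusted p alone, 6 of the 50 were higher, against 18.3% of all features, and 11 were lower, against 30.5%. Among initiation factors 2 were higher and 6 lower. The higher ones were eIF6 and eIF3d1 (0.42), and the lower ones were eIF2beta, eIF3c, eIF3e, eIF3h, eIF3m and eIF3f1, with changes of -0.70 (eIF3f1) to -0.28 (eIF3e). eIF6, which keeps the large subunit from joining early, had a change of 0.46 ± 0.09 (limma adjusted p = 0.000842). In the TOR list 2 genes were higher and 1 was lower. The RNA-binding protein larp, related to the regulators of ribosomal protein mRNAs, had a change of 0.74 ± 0.10 (limma adjusted p = 6.92e-05). The gene mTor had one of 0.41 ± 0.10 (limma adjusted p = 0.00383), and the TOR activator Rheb one of -0.52 ± 0.09 (limma adjusted p = 0.000355). Stubarista, the ribosomal protein of the small subunit that binds RpS21 and whose symbol lies outside the rule, had a change of -0.33 ± 0.07 (limma adjusted p = 0.00269).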

How the data were processed

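The authors labelled total RNA of each culture with Cy3 and hybridised it to Agilent gene expression arrays, and Feature Extraction 10.7.3.1 read the spots. Spot intensity after background subtraction was taken from the deposited array files, and the deposited value table held log2 values, which on every array differed from the log2 processed signal by one constant (within 0.01). Per the methods, arrays were scaled by their median with the 25 °C arrays as control samples, and this scaling was recomputed here from the processed signal. Spots marked as outliers were left out. A probe was kept if 50% of its spots were well above background on 2 arrays of a temperature and it had values on 10 arrays. Genes were named through transcript names in the RefSeq table of the current fly assembly. RpS19a, matched only by accession, served solely as partner of RpS19b. Tests used limma 3.58.1 in R 4.3.3, with 4 temperature groups in 1 fit and Benjamini-Hochberg adjustment over all features. A call needed 2-fold and an adjusted p under 0.01. Scripts were tested on simulated data. The normexp alternative used the median spot signal in place of the planned mean signal. The members and lists were chosen with earlier results of these data known. Genes were named in the text if called in any comparison, if a paralog or its main gene, if in the stalk or fused to ubiquitin, if among the 3 highest or 3 lowest main genes, or if their probes differed by 1 or more on the log2 scale. Replicates were separate cultures, and 3 per temperature limit the precision. Some genes that this rule names are not reported here.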

Additional observations from a re-analysis of the deposited data

How the results depend on the processing

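The cool against warm calls of RpS10a and RpS28-like stood under the 5 other scalings, without any 1 array, with slide or replicate number as a block, and under limma treat. For RpS28-like these settings all reuse warm values not well above background and the same selection by the filter. They are therefore no support for its call or its size, for which the bound was 1.14-fold. Both calls ended under both normexp corrections, with 0 members higher and 0 lower. The filter on signals over 100 left out the probes of these paralogs and of RpL22-like, so that its 0 higher and 0 lower here and below follow from fewer genes tested. The planned normexp fit, distorted on 7 arrays by spots far below background, turned RpS28-like to -0.0030 and RpS28-like minus RpS28b to -0.34, and called 0 members in every comparison. The counts at 11 against 25 °C were 0 higher and 0 lower under both normexp corrections and the signal filter, and 0 higher under treat. Those at 14 against 25 °C were 0 and 0 under normexp, the filter and treat, 0 lower with spike-in controls, and 0 higher with only the arrays compared or the slide as a block. At 30 against 25 °C, 0 were higher under normexp, the signal filter, treat, no filter on dim probes and the replicate block.

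With 1 array left out, the counts ranged from 1 to 2 lower in cool cells (2, with RpL22-like, without 11 °C replicate 2), from 1 to 2 lower at 11 against 25 °C (2, with RpS19b, without 25 °C replicate 1), and from 0 to 1 higher at 30 against 25 °C. At any fold, they ranged from 2 to 5 higher (5 without 25 °C replicate 1) and from 6 to 11 lower (6 when replicate 2 of 14 or of 25 °C was left out, and 7 for replicate 1 of 11 or of 30 °C and replicate 3 of 14 °C). Among the other settings, the any-fold counts were 7 higher and 3 lower with the 75th percentile and with probes above background, 6 and 6 after quantile normalization, 1 lower with spike-in controls, 5 lower scaled on the main genes or with no dim filter, 1 and 5 with the slide as a block, 1 higher with the brightest probe, 0 and 0 under the planned normexp, and 5 and 6 under the one added after seeing the data.

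Scaling on the main genes themselves sets their median change near 0 in advance, so that setting is no test of their shift. The median change of the main genes, cool against warm, was 0.026 after quantile normalization, 0.043 with probes above background, 0.048 with the 75th percentile, 0.098 with spike-in controls, -0.0018 scaled on these genes, -0.27 with slide as a block and within slide 1 (a setting also chosen after seeing the data), 0.53 under the planned normexp and 0.0096 under the added one. At 11 against 25 °C, it was 0.036, 0.012, 0.021, 0.084, 0.014, -0.34, -0.023 and -0.053 in that order, with slide as a block alone. At 14 against 25 °C, it was 0.033 after quantile normalization, -0.045 with probes above background, -0.037 with the 75th percentile, 0.16 with spike-in controls, -8.51e-05 scaled on these genes, -0.37 with slide as a block and 0.047 under the added normexp. At 30 against 25 °C, it was 0.032 after quantile normalization, 0.065 with spike-in controls, 0.030 scaled on these genes, -1.34 under the planned normexp and 0.014 under the added one. At 11 against 14 °C, it was -0.068 with spike-in controls, 0.28 under the planned normexp and -0.080 under the added one. Without 1 array it ranged from -0.20 to -0.0986 cool against warm, from -0.32 to -0.13 at 11, from -0.31 to -0.20 at 14 and from -0.26 to -0.14 at 30 against 25 °C, and from -0.047 to 0.12 at 11 against 14 °C.

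Same-numbered arrays correlated above 0.1 in 6, 5 and 4 of 6 pairs for replicates 1, 2 and 3, with mean correlations of 0.44, 0.18 and 0.19. Of 12 arrays, 8 correlated best with one of their own number. The main fit and the exact permutation test did not use these numbers, and a fit with replicate number as a block was run beside them. The replicate block moved the count of calls only at 30 against 25 °C, where it ended the call of RpL22-like (2.05, limma adjusted p = 0.0117). By the exact permutation test, RpS5b minus RpS5a passed when the array of 14 °C replicate 3 (adjusted p = 0.0325) was left out, or that of 25 °C replicate 1 (adjusted p = 0.013). Weak signals limit RpS28-like and RpL22-like, whose values below background are only bounds.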
